A study of Mus musculus with 8 samples.

Results

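The 40 genes described here are the cytoplasmic aminoacyl-tRNA synthetases and a set of widely cited targets of the transcription factor ATF4, measured in mouse C2C12 myoblasts with and without knockdown of Atad2. They were chosen by symbol for their textbook roles, not by a threshold on these values, but with earlier results of these data known. The table held 35976 genes. The 40 were 20 synthetase genes, 8 stress-response factors and effectors, 6 enzymes of serine, one-carbon and asparagine synthesis, and 6 amino acid transporters. All 40 were in the table and all 40 passed the filter on low values, which 14703 genes passed in all. C2C12 is an immortalised line of mouse skeletal muscle precursor cells that can fuse into myotubes. Total RNA was sequenced from 4 samples of C2C12 cells given an Atad2 shRNA, where Atad2 encodes a bromodomain ATPase of chromatin, and from 4 samples of the same line given a non-targeting shRNA, called control shRNA here. Both groups were lysed 48 h after transfection, and both come from a single cell line. The labels do not give the number of hairpins used or say that the libraries came from separate cultures, so the p-values measure the spread between these libraries, which may be technical, and an effect of the hairpin itself cannot be told apart from one of lower Atad2.

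ATF4 is the main transcription factor of the integrated stress response. When amino acids run short, the endoplasmic reticulum is overloaded or heme is low, kinases phosphorylate the initiation factor eIF2, general translation slows, and translation of the Atf4 mRNA rises because of short upstream reading frames. ATF4 then binds composite elements, often together with a C/EBP protein, at genes for amino acid uptake, amino acid synthesis, tRNA charging and stress-induced arrest or death. Cytoplasmic aminoacyl-tRNA synthetases join each amino acid to its tRNA, and part of them sit in the multisynthetase complex. Because much of ATF4 control acts on translation, the level of Atf4 mRNA is not a measure of ATF4 protein, which was not measured here.

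The composite element can be written as TGATGNAA, and its reverse complement as TTNCATCA. These letters were searched on both strands in promoter windows of RefSeq on GRCm38.p6, each running from 250 bases before to 50 bases after a gene's start. They were found in 1304 of 32851 windows of this length, or 3.97%. Of the 40 genes, 31 were matched to a window, and the others were Cars, Hars, Lars, Nars, Rars, Vars, Wars, Slc7a5 and Slc1a5. Of the 31 genes with a window, 9 held the letters, namely Aars, Gars, Iars, Tars, Yars, Trib3, Chac1, Asns and Slc1a4. Atf5, Psat1 and Slc7a1 had 2 windows each, so 9 is a count of genes, while 3.97% is a share of windows. The matches are shown because they let the change of each gene be read beside the letters at its start, and they describe sequence only, not binding. Each line below gives 30 bases on the strand of the gene, 5′ to 3′, with the matching letters in capitals.
Chac1, chr2:119351038-119351067, plus strand: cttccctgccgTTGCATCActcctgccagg
Trib3, chr2:152344028-152344057, minus strand: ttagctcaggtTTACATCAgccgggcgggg
Aars, chr8:111033840-111033869, plus strand: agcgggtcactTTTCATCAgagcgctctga
Gars, chr6:55037960-55037989, plus strand: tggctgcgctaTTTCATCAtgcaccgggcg
Iars, chr13:49682126-49682155, plus strand: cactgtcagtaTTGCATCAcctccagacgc
Tars, chr15:11399655-11399684, minus strand: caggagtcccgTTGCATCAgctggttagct
Yars, chr4:129189895-129189924, plus strand: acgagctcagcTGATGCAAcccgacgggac
Asns, chr6:7693214-7693243, minus strand: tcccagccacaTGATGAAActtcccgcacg
Slc1a4, chr11:20332699-20332728, minus strand: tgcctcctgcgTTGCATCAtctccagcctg

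The matches lay close to the annotated starts in most of these genes. Counted from the RefSeq start on the gene's strand, the letters began at -193 in Chac1, -30 in Gars, -23 in Asns, -15 in Tars and -4 in Slc1a4. Those shown for Yars, Iars, Trib3 and Aars began at 4, 8, 15 and 10, inside the transcribed part. Aars held another match, not shown above, that began at -112, upstream of its start. The full 250 bases upstream of the start are shown for the stress effector with the largest change in level, Chac1, and for Asns, the asparagine synthetase gene, long used to study such elements.
Chac1, chr2:119350992-119351241, plus strand: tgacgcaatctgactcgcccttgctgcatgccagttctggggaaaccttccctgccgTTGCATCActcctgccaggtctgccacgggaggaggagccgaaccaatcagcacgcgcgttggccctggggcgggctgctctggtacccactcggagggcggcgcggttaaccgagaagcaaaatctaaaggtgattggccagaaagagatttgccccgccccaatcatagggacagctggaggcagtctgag
Asns, chr6:7693210-7693459, minus strand: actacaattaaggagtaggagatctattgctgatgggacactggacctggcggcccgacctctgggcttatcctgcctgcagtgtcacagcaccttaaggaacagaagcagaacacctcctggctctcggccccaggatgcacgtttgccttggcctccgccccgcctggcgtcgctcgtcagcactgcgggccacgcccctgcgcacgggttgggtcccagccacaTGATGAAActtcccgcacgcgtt

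Values below are log2 levels, meaning log2(normalised count + 1) as deposited, and differences are log2 fold changes of Atad2 shRNA over control shRNA. A gene was called when its limma p, two-sided and adjusted over all 14703 genes by the Benjamini-Hochberg method, was under 0.05. Atad2 itself averaged 11.93 ± 0.14 in Atad2 shRNA libraries and 14.67 ± 0.06 in control libraries (SD, n = 4 each), a log2 fold change of -2.73 (exact two-sided permutation p = 0.0286, the smallest that 4 against 4 can give). Recovered reads per library totalled 50.3 to 72.3 Mreads in Atad2 shRNA libraries and 61.4 to 73.0 Mreads in control libraries, and no gene among the 40 had fewer than 248 reads in a library. The annotated spans of Aars, Farsb, Wars, Yars, Atf5, Cebpg, Sesn2, Psph, Shmt2 and Slc7a5 overlap other annotated genes, as do those of Hars, Mars and Ddit3, so reads could be shared there. The groups lay apart on the first principal component (65.1% of variance), and on the second (8.29%) Atad2 shRNA replicate 3 stood apart from the other 7 libraries. RPM is reads scaled to a common library total. Summed markers of myoblasts were at 815 to 901 RPM in Atad2 shRNA libraries and 779 to 822 RPM in control libraries. Des and Myod1 were higher and Cdh15, Myf5 and Pax7 lower in Atad2 shRNA libraries, and Itga7 overlapped between the groups. Pax7 was low in both groups, at 0 to 0.166 RPM in Atad2 shRNA libraries and 0.288 to 0.621 RPM in control libraries. Of 6 macrophage markers, the sum was 8.32 to 10.5 RPM in Atad2 shRNA libraries and 4.04 to 4.93 RPM in control libraries, most of it Cd68, while Adgre1 had 0 reads in all 8 libraries, under a floor of 0.0411 to 0.0596 RPM that 3 reads set, and Ptprc reached at most 0.0605 RPM. The sum of 5 endothelial markers was 0.437 to 0.775 RPM in Atad2 shRNA libraries and 0.726 to 1.01 RPM in control libraries, and that of 5 adipocyte markers, with Adipoq and Lep at 0 in all 8 libraries, was 0.0584 to 0.298 RPM in Atad2 shRNA libraries and 0.534 to 0.651 RPM in control libraries. The part of these markers in the results was not tested.

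Across the 40 genes, 14 rose, 18 fell and 8 were not called. Of all genes tested, 30.8% were called higher and 29.6% lower, so a call by itself was common in this comparison. The groups did not overlap for 25 of the 40 genes, against 53.5% of all genes tested. The median log2 fold change was -0.05 over the 40 genes and -0.01 over all genes tested. The 4 role groups had different medians: the stress factors had a median log2 fold change of -0.74, the enzymes -0.19, the synthetases 0.04 and the transporters 0.36. The synthetase median changed sign with scaling, to -0.06 under cyclic loess, -0.07 under quantile normalisation and -0.04 under scaling to total reads. Without Atad2 shRNA replicate 3 the counts were 13 higher and 17 lower. The split between directions depended on scaling: cyclic loess and quantile normalisation each gave 11 higher and 22 lower, and scaling to total reads gave 11 higher and 21 lower of the 40, and 3295 higher and 5461 lower of all genes. Of the 32 called genes, 24 kept call and direction in each of 20 alternative fits, 11 of them higher and 13 lower.

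**Figure D1:**
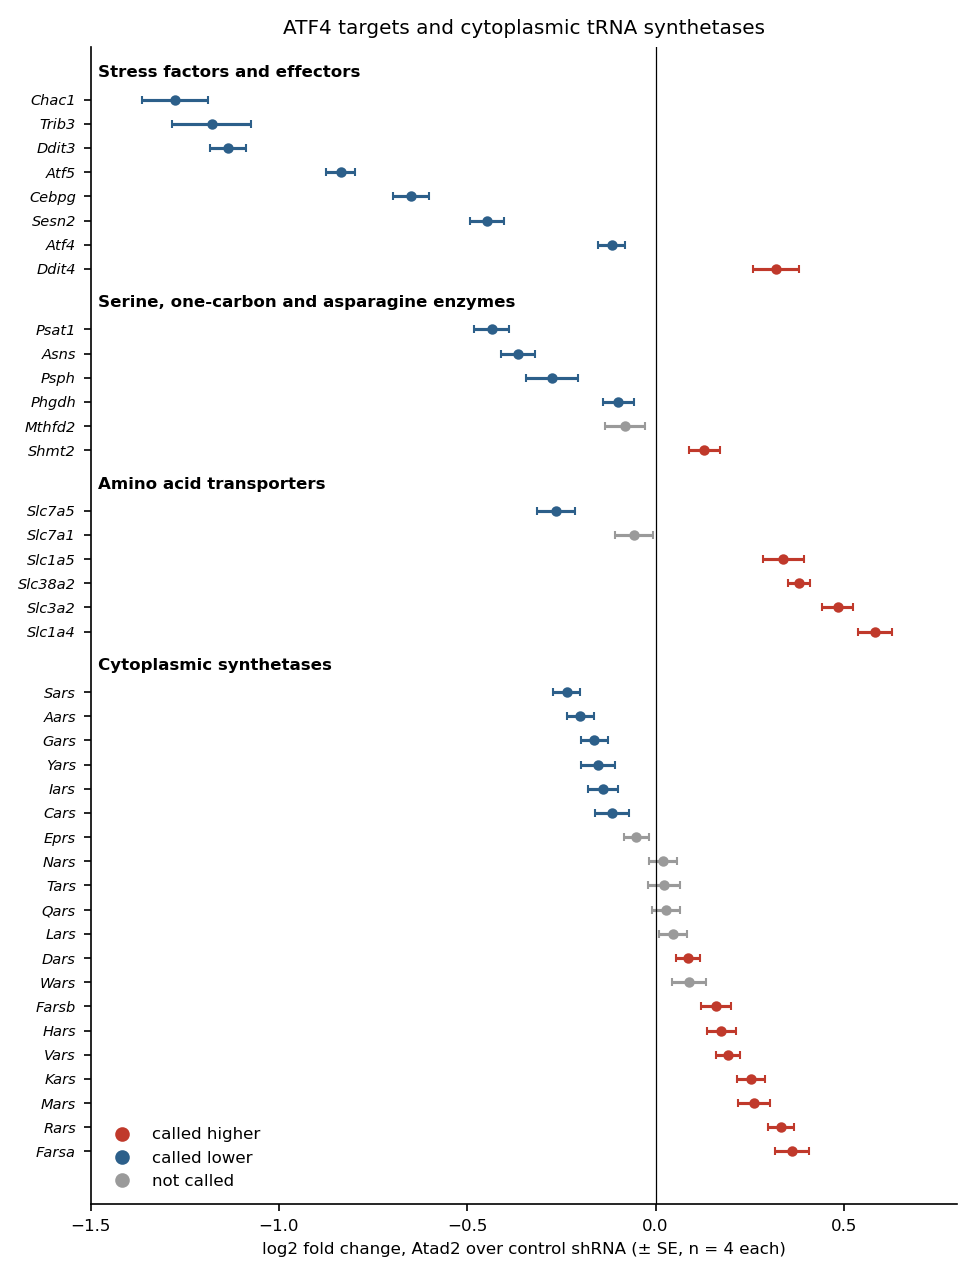
Log2 fold change of Atad2 shRNA over control shRNA for each of the 40 genes, ordered within 4 role groups, with standard errors from limma (4 libraries a group). Ddit3, Trib3 and Chac1 lie at -1.14, -1.18 and -1.28, Slc1a4 lies at 0.58, and the synthetases lie between -0.24 and 0.36.

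Across all genes, the direction of change moved with expression level, and the part of this in the changes of the 40 genes was not tested. Genes with a mean log2 level above 13 had a median log2 fold change of 0.11, those from 11 to 13 of 0.08 and those under 11 of -0.17, and cyclic loess brought all 3 medians to 0.01 or less in size. Above 13, 57.8% of genes were called higher and 20.2% lower, and the 20 listed genes there split 8 higher and 8 lower. From 11 to 13, 46.9% were called higher and 22.3% lower, and the 14 listed genes there split 4 higher and 6 lower. Under 11, 16.9% were called higher and 35.3% lower, and the 6 listed genes there split 2 higher and 4 lower. The 2 that rose there were Ddit4 and Slc1a5, and the 4 that fell were Ddit3, Trib3, Chac1 and Psph.

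**Figure D2:**
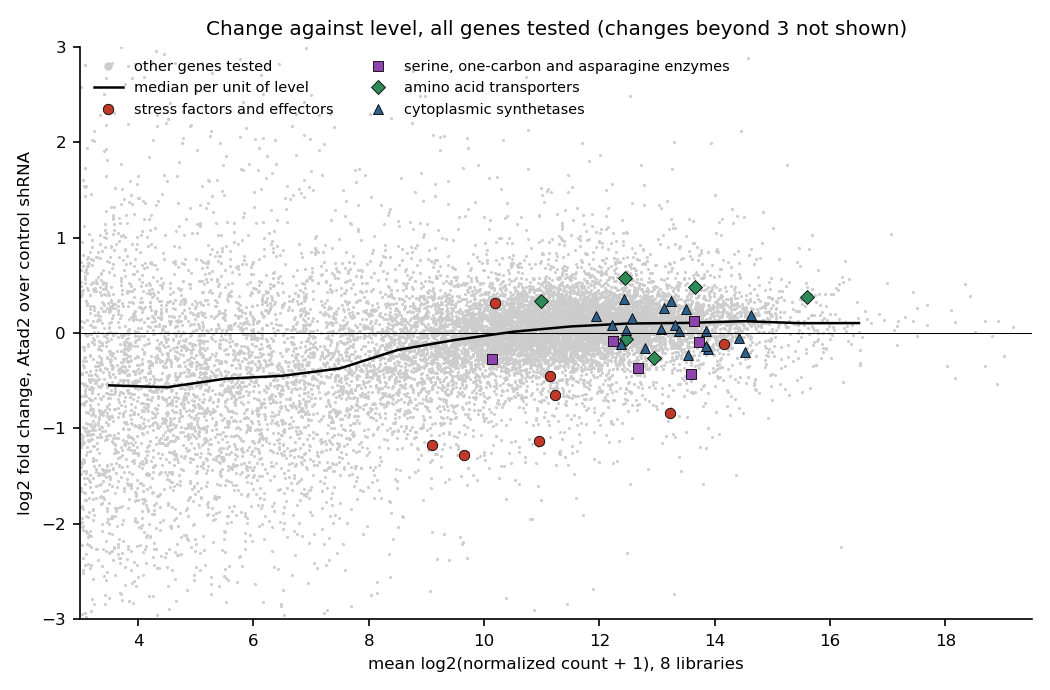
Log2 fold change of Atad2 shRNA over control shRNA against the mean log2 level over 8 libraries, for all genes tested (grey), the 40 genes by role (colours) and the median per unit of level where at least 20 genes fall (line), with changes beyond 3 left out of the plot. The line lies below 0 at low levels and above 0 at high levels, the synthetases sit at mean log2 levels from 11.94 to 14.62, and Trib3, at 9.10, is the lowest of the 40.

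Of the 8 stress factors and effectors, 7 fell and 1 rose, and the groups overlapped only for Atf4. Over all genes tested, 29.6% were called lower and 30.8% higher, and the groups did not overlap for 53.5%. Ddit3, Trib3 and Chac1 were at least 2-fold lower, 3 of the 8, against 9.46% of all genes tested. In these bulk samples, fewer cells expressing a gene and less of its RNA per cell cannot be told apart. Chac1 encodes a glutathione-degrading enzyme that ATF4 and CHOP induce. Its log2 levels were 9.24, 8.84, 9.08 and 8.89 in Atad2 shRNA libraries, against 10.33, 10.37, 10.14 and 10.31 in control libraries. Its log2 fold change was -1.28 ± 0.09 (SE; limma adjusted p = 7.4e-11), and control cells held 2.42 times as much. All 4 Atad2 shRNA libraries lay below all 4 control libraries.

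Trib3 encodes a pseudokinase that binds AKT and ATF4 and damps ATF4 activity. Log2 levels of 8.52, 8.68, 8.68 and 8.17 in Atad2 shRNA libraries stood against 9.65, 9.81, 9.65 and 9.66 in control libraries. The log2 fold change was -1.18 ± 0.10 (SE; limma adjusted p = 5e-09). It had the fewest reads of the 40, with 248 to 427 in Atad2 shRNA libraries and 854 to 950 in control libraries, and Atad2 shRNA replicate 4 was its lowest library. Ddit3 encodes CHOP, a C/EBP-family factor that drives late pro-death targets of the response. Log2 levels of 10.39, 10.42, 10.41 and 10.34 in Atad2 shRNA libraries stood against 11.47, 11.49, 11.54 and 11.58 in control libraries, a log2 fold change of -1.14 ± 0.05 (SE; limma adjusted p = 2.3e-14). The spread within each group was small beside the gap between them.

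Atf5, a factor related to ATF4 and itself controlled by upstream reading frames, had log2 levels of 12.89, 12.85, 12.77 and 12.69 in Atad2 shRNA libraries, against 13.66, 13.61, 13.64 and 13.64 in control libraries. Its log2 fold change was -0.84 ± 0.04 (SE; limma adjusted p = 1.1e-13). Cebpg, which encodes a dimer partner of ATF4, had log2 levels of 10.90, 10.98, 10.87 and 10.86 in Atad2 shRNA libraries, against 11.57, 11.62, 11.56 and 11.45 in control libraries. Neither gene overlapped between groups, and Cebpg fell by 0.65 on the log2 scale (limma adjusted p = 2.6e-10). Sesn2, a leucine sensor that restrains mTORC1, also fell, by 0.45 on the log2 scale, with log2 levels from 10.89 to 10.95 in Atad2 shRNA libraries and from 11.33 to 11.44 in control libraries (limma adjusted p = 3.2e-08).

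The 1 gene of the group that rose was Ddit4, which encodes REDD1, another inhibitor of mTORC1 signalling that also responds to hypoxia and glucocorticoids. Its log2 levels were 10.39, 10.37, 10.23 and 10.40 in Atad2 shRNA libraries, against 10.07, 10.04, 10.05 and 9.96 in control libraries, a log2 fold change of 0.32 ± 0.06 (SE; limma adjusted p = 0.00012). The pair of mTORC1 inhibitors in the list thus moved in opposite directions.

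Atf4 mRNA itself changed little. Its log2 levels were 14.22, 14.09, 14.10 and 14.02 in Atad2 shRNA libraries, against 14.23, 14.23, 14.22 and 14.22 in control libraries. Atad2 shRNA replicate 1 reached the control range, and the other 3 libraries lay below it. The log2 fold change was -0.12 ± 0.04 (SE; limma adjusted p = 0.0076), the adjusted p was 0.055 when limma was run without a variance trend, and the log2 fold change was -0.23 under cyclic loess. Within each library, the log2 difference Atf4 minus Ddit3 was 3.83, 3.67, 3.70 and 3.68 in Atad2 shRNA libraries, against 2.76, 2.74, 2.68 and 2.63 in control libraries. The ratio of Atf4 to Ddit3 was thus higher by 1.02 on the log2 scale with Atad2 shRNA, without overlap between the groups, and a scaling factor per library does not change it.

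**Figure D3:**
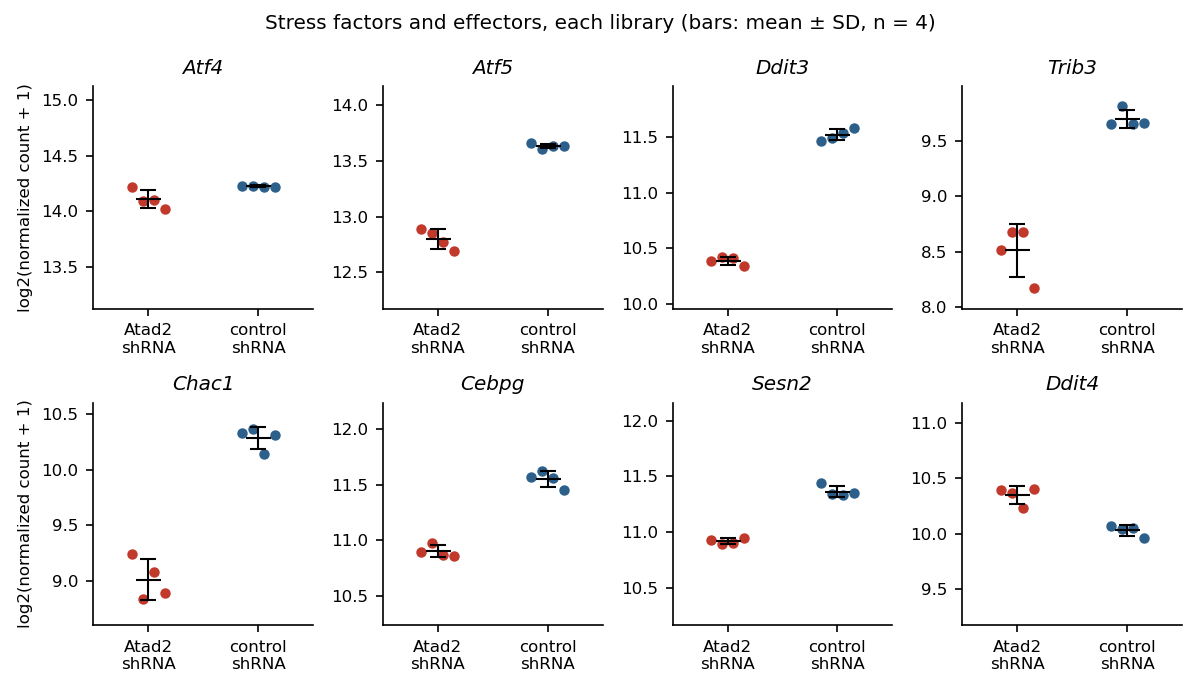
Log2 level of each of the 8 stress factors and effectors in every library, Atad2 shRNA on the left and control shRNA on the right of each panel, with points for libraries and bars for group means (4 libraries a group). Ddit4 is the panel in which the Atad2 shRNA libraries, at 10.23 to 10.40, lie above the control libraries, at 9.96 to 10.07, and the groups meet only in the panel of Atf4.

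Levels were compared between genes as RPKM, which is RPM divided by the exon length in kilobases, with lengths from GENCODE M21. RPKM carries scaling to total reads, not the deposited normalisation of the log2 levels, so differences between groups need not match the log2 fold changes. With control shRNA, Atf4 stood highest of the 8 stress genes at 131 ± 0.758 RPKM and Atf5 came next at 104 ± 1.57 RPKM (SD, n = 4). With Atad2 shRNA, Atf4 stood at 115 ± 5.57 RPKM and Atf5 at 55.1 ± 2.75 RPKM (SD, n = 4). Ddit3 followed in both groups, at 12 ± 0.276 RPKM with Atad2 shRNA and 27.8 ± 1.03 RPKM with control shRNA, but with Atad2 shRNA it was separated from Ddit4, at 11.4 ± 0.57 RPKM, by about the spread between libraries. Chac1 stood at 4.86 ± 0.603 RPKM with Atad2 shRNA and 12.4 ± 0.787 RPKM with control shRNA, where it did not differ beyond its spread from Sesn2 at 12.3 ± 0.409 RPKM. Trib3 was the lowest in both groups, at 2.66 ± 0.409 RPKM with Atad2 shRNA and 6.30 ± 0.352 RPKM with control shRNA. Union exons include those of minor isoforms, so these levels are approximate between genes.

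Among the 20 cytoplasmic synthetase genes, 8 rose, 6 fell and 6 were not called, and none changed by as much as 2-fold. The groups did not overlap for 10 of the 20, against 53.5% of all genes tested. Calls over all genes tested stood at 30.8% higher and 29.6% lower. Under cyclic loess and under quantile normalisation the split was 6 higher and 8 lower, and under scaling to total reads 6 higher and 7 lower. The 12 synthetases that are often listed as ATF4 targets, namely Aars, Cars, Eprs, Gars, Iars, Lars, Mars, Nars, Sars, Tars, Wars and Yars, split 1 higher and 6 lower, with a median log2 fold change of -0.08. The 8 others, namely Dars, Farsa, Farsb, Hars, Kars, Qars, Rars and Vars, split 7 higher and 0 lower, with a median log2 fold change of 0.18. These counts stood at 1 higher and 8 lower of the 12, and 5 higher and 0 lower of the 8, under cyclic loess and quantile normalisation. Under cyclic loess the medians were -0.19 for the 12 and 0.08 for the 8, and under scaling to total reads -0.16 for the 12 and 0.11 for the 8. Per library, the median deviation from the control mean of the 12 was -0.00, -0.04, -0.08 and -0.19 in Atad2 shRNA libraries, and that of the 8 was 0.23, 0.22, 0.17 and 0.16. No test of the difference between these lists was made, and both were drawn up with earlier results of these data known. Under cyclic loess, the log2 fold changes of the called synthetases shifted downwards, for example to -0.32 for Aars, -0.25 for Iars and Yars, -0.21 for Cars, 0.15 for Kars, 0.16 for Mars, 0.09 for Hars and 0.08 for Vars.

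Farsa and Farsb encode the catalytic alpha and the beta subunits of phenylalanyl-tRNA synthetase. Farsa had the largest log2 fold change of the synthetases, with log2 levels of 12.62, 12.69, 12.57 and 12.52 in Atad2 shRNA libraries, against 12.34, 12.16, 12.16 and 12.29 in control libraries. It rose by 0.36 ± 0.04 on the log2 scale (SE; limma adjusted p = 5.9e-07). Farsb had log2 levels from 12.54 to 12.72 in Atad2 shRNA libraries and from 12.45 to 12.52 in control libraries, a log2 fold change of 0.16 that limma called at an adjusted p of 0.0018 but not under cyclic loess, quantile normalisation or scaling to total reads. Within each library, Farsa minus Farsb was -0.10, -0.02, -0.04 and -0.02 on the log2 scale in Atad2 shRNA libraries, against -0.18, -0.29, -0.29 and -0.22 in control libraries. The ratio of Farsa to Farsb was thus higher in every Atad2 shRNA library than in any control library.

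Rars, the arginyl-tRNA synthetase of the multisynthetase complex, had log2 levels of 13.47, 13.44, 13.36 and 13.33 in Atad2 shRNA libraries, against 13.07, 13.06, 13.04 and 13.10 in control libraries. Its log2 fold change of 0.33 ± 0.03 (SE) had the smallest adjusted p of the synthetases, 4.6e-08 by limma. Mars, the methionyl-tRNA synthetase, had log2 levels of 13.32, 13.31, 13.23 and 13.16 in Atad2 shRNA libraries, against 13.03, 13.08, 12.89 and 12.97 in control libraries, and was the 1 gene of the 12 often-listed synthetases that rose, by 0.26 on the log2 scale (limma adjusted p = 2.1e-05). The annotated 3′ ends of Mars, at chr10:127296221-127311786 on the minus strand, and of Ddit3, at chr10:127290774-127296288 on the plus strand, overlap on opposite strands, and whether the counting used strand is not given in the sources used here. The pair moved in opposite directions. Kars, the lysyl-tRNA synthetase, had log2 levels of 13.71, 13.64, 13.63 and 13.53 in Atad2 shRNA libraries, against 13.42, 13.33, 13.33 and 13.40 in control libraries, and rose by 0.25 on the log2 scale (limma adjusted p = 5.3e-06). None of these 3 genes overlapped between groups.

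The other synthetases that rose were Vars, Hars and Dars, for valine, histidine and aspartate. Vars ranged from 14.67 to 14.74 on the log2 scale in Atad2 shRNA libraries and from 14.48 to 14.59 in control libraries, a log2 fold change of 0.19 (limma adjusted p = 1.9e-05). Hars, which overlaps its mitochondrial paralogue Hars2 on the opposite strand, ranged from 12 to 12.06 in Atad2 shRNA libraries and from 11.80 to 11.93 in control libraries, a log2 fold change of 0.17 (limma adjusted p = 0.00064). Neither overlapped between groups. Dars, with a log2 fold change of 0.09 and a limma adjusted p of 0.025, was the weakest of the 8: its groups overlapped, its log2 fold change was -0.02 under cyclic loess and under quantile normalisation, and the call was lost without Atad2 shRNA replicate 2 or 3 or without control replicate 1, 3 or 4 (limma adjusted p from 0.051 to 0.07).

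Sars, the seryl-tRNA synthetase, fell most among the synthetases. Its log2 levels were 13.48, 13.45, 13.44 and 13.34 in Atad2 shRNA libraries, against 13.68, 13.63, 13.61 and 13.73 in control libraries, a log2 fold change of -0.24 ± 0.04 (SE; limma adjusted p = 9e-06). Aars, for alanine, whose promoter window holds the element, fell by 0.20 on the log2 scale, with log2 levels of 14.51, 14.48, 14.35 and 14.35 in Atad2 shRNA libraries, against 14.64, 14.58, 14.60 and 14.66 in control libraries (limma adjusted p = 9.3e-05). Gars, for glycine, fell by 0.16 on the log2 scale, and its log2 levels ranged from 13.71 to 13.90 in Atad2 shRNA libraries and from 13.92 to 14 in control libraries (limma adjusted p = 0.00062). These 3 genes did not overlap between groups and held their calls in all 20 alternative fits.

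The calls of the other 3 synthetases that fell were less firm, and their groups overlapped. Yars, for tyrosine, ranged from 12.56 to 12.82 in Atad2 shRNA libraries and from 12.82 to 12.89 in control libraries, a log2 fold change of -0.15 (limma adjusted p = 0.0068, and 0.067 without a variance trend). Iars, for isoleucine, ranged from 13.67 to 13.92 in Atad2 shRNA libraries and from 13.90 to 13.95 in control libraries, a log2 fold change of -0.14 (limma adjusted p = 0.0045, and 0.053 without a variance trend). Cars, for cysteine, had a log2 fold change of -0.12 (limma adjusted p = 0.031), and log2 levels of 12.41, 12.35, 12.35 and 12.16 in Atad2 shRNA libraries, against 12.48, 12.42, 12.38 and 12.45 in control libraries. The log2 fold change of Cars was -0.06 without Atad2 shRNA replicate 4, its lowest library (limma adjusted p = 0.13), and the call was also lost without control replicate 1 (adjusted p = 0.092) or 4 (adjusted p = 0.068).

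The 6 synthetases not called were Eprs, Lars, Nars, Qars, Tars and Wars. Their log2 fold changes lay between -0.05 for Eprs, the bifunctional glutamyl-prolyl enzyme, and 0.09 for Wars, the tryptophanyl enzyme (limma adjusted p from 0.095 to 0.68). Eprs ranged from 14.33 to 14.45 on the log2 scale in Atad2 shRNA libraries and from 14.42 to 14.46 in control libraries. It was called lower under cyclic loess and quantile normalisation, by 0.17 on the log2 scale in both, and under scaling to total reads, at -0.13. Tars, for threonine, carries the element at its start and had log2 levels of 13.49, 13.46, 13.34 and 13.28 in Atad2 shRNA libraries, against 13.36, 13.46, 13.35 and 13.32 in control libraries. The groups overlapped for all 6. Log2 levels of Qars, for glutamine, ranged from 12.42 to 12.53 with Atad2 shRNA and from 12.36 to 12.50 with control shRNA. Those of Lars, for leucine, ranged from 12.99 to 13.17 with Atad2 shRNA and from 13.01 to 13.07 with control shRNA, and those of Nars, for asparagine, from 13.76 to 13.94 with Atad2 shRNA and from 13.79 to 13.88 with control shRNA. Nars was called lower under cyclic loess (log2 fold change -0.09, limma adjusted p = 0.021) and quantile normalisation (-0.09, adjusted p = 0.031). Wars ranged from 12.12 to 12.34 on the log2 scale with Atad2 shRNA and from 12.10 to 12.21 with control shRNA, and it was called higher without Atad2 shRNA replicate 4 (log2 fold change 0.14, limma adjusted p = 0.0042).

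**Figure D4:**
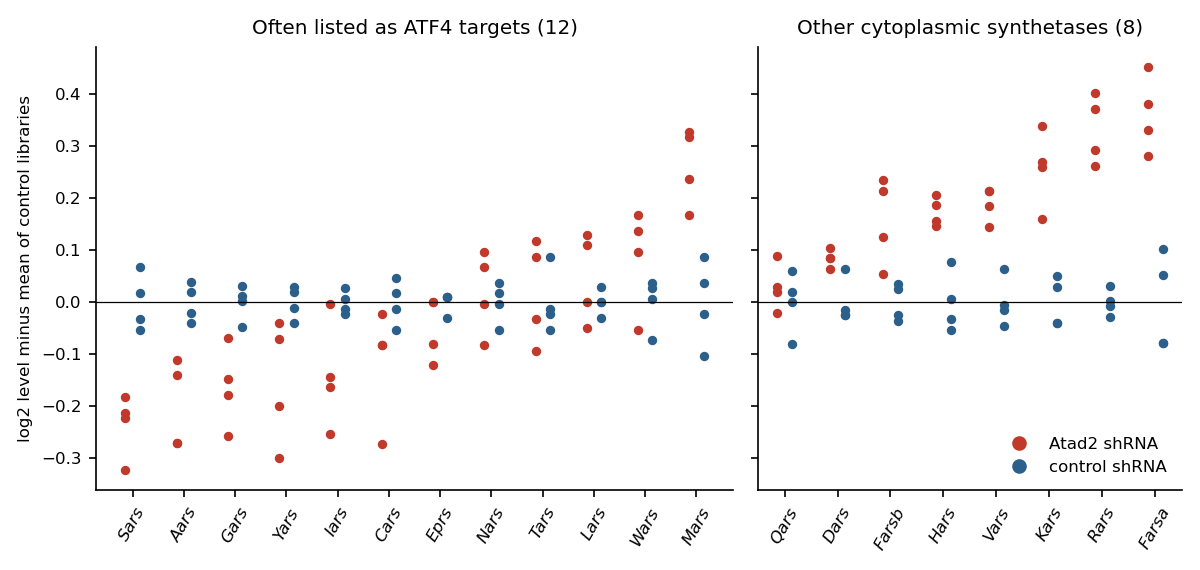
Deviation of each cytoplasmic synthetase gene in each library from its control mean, on the log2 scale, with points for libraries, Atad2 shRNA on the left and control shRNA on the right of each gene, and the 12 often-listed synthetases in the left panel and the 8 others in the right. Rars and Farsa lie above 0 in all 4 Atad2 shRNA libraries, Sars and Aars lie below 0 in all 4, and the log2 fold changes of the group run from -0.24 to 0.36.

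Grouped by place in the cell, the 8 synthetases of the multisynthetase complex (Eprs, Iars, Lars, Mars, Qars, Rars, Kars and Dars) split 4 higher and 1 lower, or 3 higher and 2 lower under cyclic loess, quantile normalisation or scaling to total reads. The 12 free synthetases split 4 higher and 5 lower, or 3 higher and 6 lower under cyclic loess and quantile normalisation. Beside the counts in this paragraph stand the shares over all genes tested, 30.8% called higher and 29.6% called lower. The genes of the 3 scaffold proteins of the complex all rose, or 2 of the 3 under scaling to total reads, where Aimp1 was not called. Eef1e1, also called AIMP3, had log2 levels of 11.26, 11.32, 11.26 and 11.11 in Atad2 shRNA libraries, against 10.84, 10.76, 10.63 and 10.68 in control libraries, a log2 fold change of 0.51 (limma adjusted p = 1e-07). Aimp2 rose by 0.30 and Aimp1 by 0.16 on the log2 scale. None of the 3 overlapped between groups, and neither did 53.5% of all genes tested. The log2 fold change of Aimp1 was as low as 0.08 over the alternative fits (limma adjusted p up to 0.14). Of 17 mitochondrial synthetases, which are encoded by nuclear genes and serve translation inside mitochondria, 7 rose, 1 fell and 9 were not called. With 1 lower each time, 5 rose under scaling to total reads, 8 under cyclic loess and 9 under quantile normalisation. Yars2 rose by 0.47, Vars2 by 0.35, Sars2 by 0.33 and Iars2 by 0.22 on the log2 scale (limma adjusted p from 9.5e-07 to 0.00064). Over the alternative fits, the log2 fold change of Iars2 was as low as 0.12. Yars and Yars2, and Sars and Sars2, therefore moved in opposite directions between the cytoplasmic and the mitochondrial enzyme of the same amino acid.

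Of the 6 enzymes, 4 fell, 1 rose and 1 was not called, or 5 fell and 0 rose under cyclic loess, quantile normalisation and scaling to total reads. Among all genes tested, 29.6% were called lower and 30.8% higher. Psat1 and Psph catalyse the second and the last step of serine synthesis, and Phgdh the first. Psat1 had log2 levels of 13.46, 13.42, 13.38 and 13.25 in Atad2 shRNA libraries, against 13.83, 13.94, 13.72 and 13.76 in control libraries, a log2 fold change of -0.43 ± 0.05 (SE; limma adjusted p = 7.7e-08). Psph had log2 levels of 10.17, 10, 9.90 and 9.93 in Atad2 shRNA libraries, against 10.26, 10.42, 10.22 and 10.20 in control libraries, a log2 fold change of -0.28 ± 0.07 (SE; limma adjusted p = 0.0019). Neither overlapped between groups. Phgdh overlapped, with log2 levels of 13.72, 13.74, 13.65 and 13.60 in Atad2 shRNA libraries, against 13.84, 13.84, 13.64 and 13.78 in control libraries. Its log2 fold change of -0.10 passed the threshold narrowly (limma adjusted p = 0.047). It failed without Atad2 shRNA replicate 3 or 4 or without control replicate 1, 2 or 4 (limma adjusted p from 0.084 to 0.16), and was -0.21 under cyclic loess.

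Asns, which makes asparagine from aspartate and glutamine, had log2 levels of 12.61, 12.52, 12.46 and 12.36 in Atad2 shRNA libraries, against 12.90, 12.89, 12.76 and 12.86 in control libraries. It fell by 0.37 on the log2 scale (limma adjusted p = 5.8e-07), without overlap between the groups. Shmt2 and Mthfd2 carry the mitochondrial steps that turn serine into one-carbon units. Shmt2 had log2 levels of 13.80, 13.74, 13.66 and 13.59 in Atad2 shRNA libraries, against 13.65, 13.59, 13.50 and 13.55 in control libraries, a log2 fold change of 0.13 (limma adjusted p = 0.011). The groups overlapped, and the log2 fold change was 0.02 under cyclic loess. The call was also lost without Atad2 shRNA replicate 1 (0.10, adjusted p = 0.056) or control replicate 3 (0.10, adjusted p = 0.052). Mthfd2, not called, ranged from 12.11 to 12.33 with Atad2 shRNA and from 12.15 to 12.38 with control shRNA, and was called lower under cyclic loess (log2 fold change -0.17, limma adjusted p = 0.0081), quantile normalisation (-0.17, adjusted p = 0.0086) and scaling to total reads (-0.16, adjusted p = 0.01), and without Atad2 shRNA replicate 1 (-0.13, adjusted p = 0.044).

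Of 12 other one-carbon and glycine genes, 7 rose, 2 fell and 3 were not called, with a median log2 fold change of 0.20, or 5 rose and 2 fell with a median of 0.12 under scaling to total reads. The shares over all genes tested were 30.8% higher and 29.6% lower. Slc25a32, the mitochondrial folate carrier, had log2 levels of 12.70, 12.69, 12.68 and 12.59 in Atad2 shRNA libraries, against 11.53, 11.62, 11.60 and 11.56 in control libraries, a log2 fold change of 1.09 (limma adjusted p = 1.5e-15). Mthfd1l and Mthfd1, which make and use formate in mitochondria and cytosol, rose by 0.44 and 0.31 on the log2 scale, and Dld, the shared dehydrogenase of glycine cleavage, rose by 0.24. Amt, another glycine cleavage protein, fell by 1.02 on the log2 scale at low counts, 33 to 63 reads in Atad2 shRNA libraries and 74 to 131 in control libraries, and Aldh1l2, a mitochondrial folate dehydrogenase, fell by 0.29. The log2 fold change of Mthfd1 was as low as 0.20, that of Dld as low as 0.14 and that of Amt as high as -0.57 over the alternative fits.

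Of the 6 transporters, 4 rose, 1 fell and 1 was not called, or 4 rose and 2 fell under cyclic loess, quantile normalisation and scaling to total reads. Among all genes tested, 30.8% were called higher and 29.6% lower. Slc1a4, which carries alanine, serine and cysteine, rose most. Its log2 levels were 12.82, 12.71, 12.72 and 12.70 in Atad2 shRNA libraries, against 12.20, 12.26, 12.12 and 12.04 in control libraries, a log2 fold change of 0.58 ± 0.04 (SE; limma adjusted p = 4.5e-10). It was the 1 gene that rose among the 9 with the element in their window. Slc1a5, its glutamine-carrying relative, had log2 levels of 11.24, 11.10, 11.12 and 11.16 in Atad2 shRNA libraries, against 10.86, 10.91, 10.68 and 10.80 in control libraries, a log2 fold change of 0.34 (limma adjusted p = 1.6e-05). The groups did not overlap for either gene, and Slc1a4 minus Slc1a5 was 1.58, 1.62, 1.60 and 1.54 on the log2 scale in Atad2 shRNA libraries, against 1.35, 1.35, 1.44 and 1.24 in control libraries.

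Slc38a2, the SNAT2 carrier of small neutral amino acids, had log2 levels of 15.81, 15.80, 15.81 and 15.76 in Atad2 shRNA libraries, against 15.42, 15.45, 15.43 and 15.36 in control libraries, a log2 fold change of 0.38 ± 0.03 (SE; limma adjusted p = 7.9e-10). Per length it stood at 98.7 ± 1.16 RPKM with Atad2 shRNA and 80.0 ± 2.46 RPKM with control shRNA (SD, n = 4 each). Slc7a1, the cationic amino acid transporter CAT1, was not called and ranged from 12.25 to 12.56 with Atad2 shRNA and from 12.41 to 12.54 with control shRNA. It was called lower under cyclic loess (log2 fold change -0.15), quantile normalisation (-0.16) and scaling to total reads (-0.14; limma adjusted p from 0.0064 to 0.021).

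Slc7a5 and Slc3a2 encode LAT1 and CD98, the light and heavy chains of a leucine exchanger, and they moved in opposite directions. Slc3a2 had log2 levels of 14.04, 13.91, 13.87 and 13.80 in Atad2 shRNA libraries, against 13.45, 13.38, 13.41 and 13.44 in control libraries, a log2 fold change of 0.48 ± 0.04 (SE; limma adjusted p = 2.1e-09). Slc7a5 had log2 levels of 12.98, 12.78, 12.83 and 12.69 in Atad2 shRNA libraries, against 13.16, 13.14, 13.03 and 13 in control libraries, a log2 fold change of -0.26 ± 0.05 (SE; limma adjusted p = 0.0001). Neither overlapped between groups. Slc7a5 minus Slc3a2 was -1.06, -1.13, -1.04 and -1.11 on the log2 scale in Atad2 shRNA libraries, against -0.29, -0.24, -0.38 and -0.44 in control libraries. The light chain was thus lower relative to the heavy chain by 0.75 on the log2 scale, a within-library difference that a scaling factor per library does not change. Per length, Slc7a5 stood at 30.0 ± 2.27 RPKM with Atad2 shRNA and 37.9 ± 1.99 RPKM with control shRNA, and Slc3a2 at 66.7 ± 4.13 RPKM with Atad2 shRNA and 50.3 ± 1.02 RPKM with control shRNA (SD, n = 4 each).

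**Figure D5:**
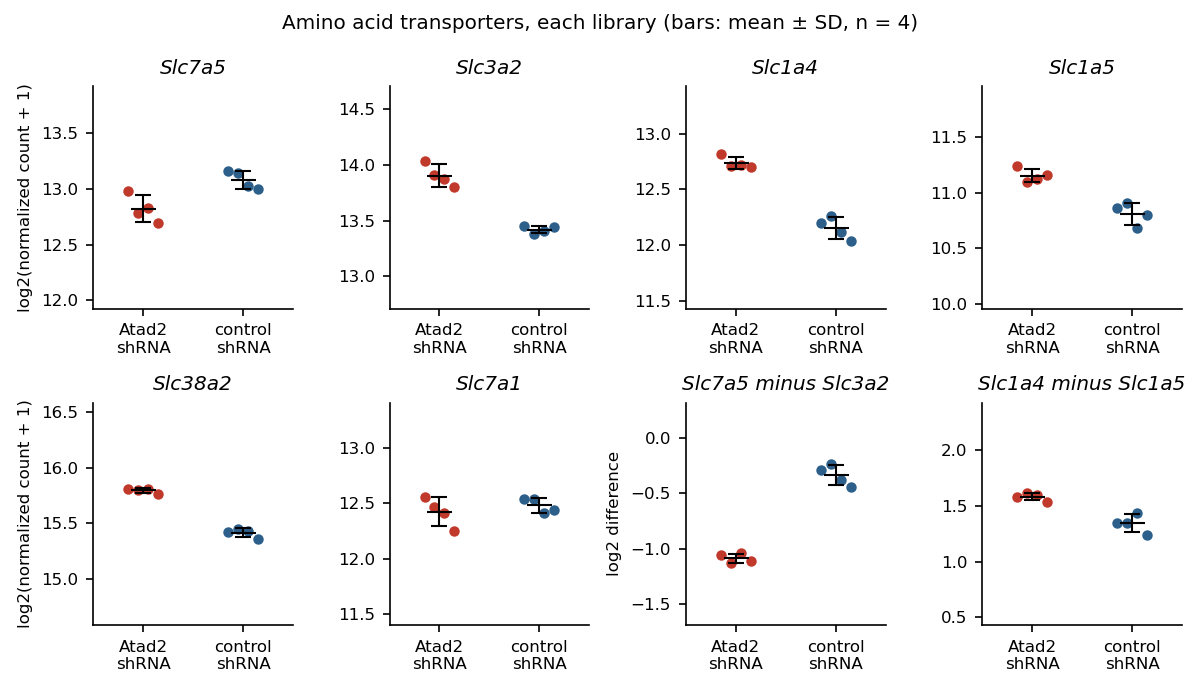
Log2 level of each of the 6 amino acid transporters, and the log2 differences Slc7a5 minus Slc3a2 and Slc1a4 minus Slc1a5, in every library, with Atad2 shRNA on the left and control shRNA on the right, points for libraries and bars for group means (4 libraries a group). Slc1a4, Slc3a2, Slc38a2 and Slc1a5 lie higher with Atad2 shRNA, and Slc7a5 lies lower. The difference Slc7a5 minus Slc3a2 runs from -1.13 to -1.04 with Atad2 shRNA and from -0.44 to -0.24 with control shRNA.

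Slc3a2 also pairs with xCT, the cystine-glutamate exchanger encoded by Slc7a11, which is outside the 40 genes. Of 23 other amino acid transporter genes, 17 passed the filter, 8 rose, 7 fell and 2 were not called. Calls over all genes tested were 30.8% higher and 29.6% lower. Slc7a11 had log2 levels of 12.77, 12.55, 12.70 and 12.32 in Atad2 shRNA libraries, against 9.19, 9.27, 9.27 and 8.94 in control libraries, a log2 fold change of 3.42 (limma adjusted p = 3.7e-18) and 10.7 times the control level. Slc6a9, the glycine transporter GlyT1, rose by 1.45, Slc43a2, a neutral amino acid carrier, by 1.00, and Slc6a6, the taurine transporter, by 0.29 on the log2 scale. Over the alternative fits, the log2 fold change of Slc6a6 was as low as 0.17. Slc38a9, the lysosomal arginine sensor, fell by 0.55 and Slc36a4, a proline and tryptophan carrier, by 0.39.

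Among 25 other genes often named as ATF4 targets, 21 passed the filter, of which 8 rose, 11 fell and 2 were not called, with a median log2 fold change of -0.10. The median was -0.18 under cyclic loess, with 6 higher and 11 lower, and -0.18 under scaling to total reads, with 7 higher and 12 lower. Without these scalings, 30.8% of all genes tested were called higher and 29.6% lower. This list shares Slc7a11 and Slc6a9 with the list of transporters, and they had its smallest adjusted p among the genes that rose. It also shares Slc7a3, which did not pass the filter, with the transporters. Mthfd1l and Aldh1l2 are in both this list and that of one-carbon and glycine genes, so the counts of these lists are not separate. Nupr1, a small stress-induced chromatin protein, had log2 levels of 9.54, 9.25, 9.19 and 9.24 in Atad2 shRNA libraries, against 10.15, 10.22, 10.21 and 10.23 in control libraries, a log2 fold change of -0.90 (limma adjusted p = 2.9e-09). Jdp2, a bZIP repressor, fell by 0.77, Gpt2, the mitochondrial alanine aminotransferase, by 0.47, and Aldh18a1, the first enzyme of proline synthesis, by 0.32 on the log2 scale. The list thus moved both ways, as the 40 genes did.

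Upstream of ATF4, 16 genes for eIF2 kinases, phosphatase adaptors, subunits of eIF2 and eIF2B, Gcn1l1 and Impact split 8 higher, 2 lower and 6 not called. Over all genes tested, 30.8% were called higher and 29.6% lower. The genes called higher were Gcn1l1, Impact, Eif2s1, Eif2s3x, Eif2b1, Eif2b3, Eif2b4 and Eif2b5, with no kinase or adaptor gene among them. Gcn1l1 and Eif2s3x each reversed direction in 2 alternative fits. Of 20 such fits, Eif2s3x lost its call in 11, Gcn1l1 in 3, and Eif2b1 and Eif2b4 in 1 each. Ppp1r15a, not called, is also in the list of other ATF4 targets. The median log2 fold change of the 16 was 0.08, and it was within 0.01 of 0 under cyclic loess, quantile normalisation and scaling to total reads. The split of the 16 genes was 5 higher and 4 lower under cyclic loess, 5 higher and 3 lower under quantile normalisation, and 3 higher and 5 lower under scaling to total reads. Ppp1r15b, the constitutive adaptor of the eIF2 phosphatase, had log2 levels of 13.06, 13.07, 13.04 and 12.99 in Atad2 shRNA libraries, against 13.50, 13.48, 13.40 and 13.45 in control libraries, and fell by 0.42 on the log2 scale (limma adjusted p = 7.3e-10). Eif2ak2, the double-stranded RNA sensor PKR, fell by 0.24. Impact, an inhibitor of the amino acid-sensing kinase GCN2, rose by 0.26, Eif2b3 by 0.23, Eif2b5 by 0.20 and Eif2s1, the phosphorylated eIF2 subunit, by 0.15 on the log2 scale, and Eif2s1 lost its call in at least 1 alternative fit (limma adjusted p up to 0.21). Over those fits the log2 fold change was as low as 0.16 for Impact, 0.15 for Eif2b3 and 0.11 for Eif2b5. Phosphorylation of eIF2 was not measured.

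Read against the promoter letters, each outcome had windows with the element, in unequal shares whose difference was not tested. Of the 16 genes with a window that fell, 7 held it, namely Aars, Gars, Iars, Yars, Trib3, Chac1 and Asns. Of the 10 with a window that rose, 1 held it, Slc1a4, and of the 5 with a window that were not called, 1 held it, Tars. By role, 5 of the 13 synthetases with a window and 2 of the 8 stress genes held the letters. Ddit3, with 1 window, and Atf5, with 2, fell by 1.14 and 0.84 on the log2 scale and had no match. This says only that these letters are not in the 300 bases of each window.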

How the data were processed

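Total RNA of 8 C2C12 libraries was sequenced. The submitters' processing notes name HTSeq 0.13.5, SAMtools 1.1, bcl2fastq 2.20, DESeq2 without a version, and build mm10. For the aligner, annotation and strand setting, nothing is given in the sources used here. The authors deposited log2 values of normalised count + 1, a form read from the values: converted back, 100% of low values (up to 50 reads) in each library lay within 0.1 reads of whole multiples of a single step. Those steps gave the recovered reads used for totals, RPM and RPKM. High read numbers are approximate, because values were rounded, and floors cover counting error only.

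The test, for genes with a mean log2 level above 3, was limma's (version 3.58.1, R 4.3.3) lmFit and eBayes with trend and no covariates. The procedure was tested on simulated data in which few genes changed and direction did not move with level. Those settings differ from these data, so that check does not cover the dependence of calls on scaling. Single values had exact permutation tests in SciPy 1.17.1. As alternatives, the filter was dropped or raised to 5, the offset set to 8, libraries centred on their medians, normalised by quantiles or cyclic loess, weighted or left out in turn, the trend dropped, the prior made robust, the replicate number added as a block, voom run on recovered reads, and the threshold set to 0.01. Scaling to total reads was chosen after seeing the data. Gene spans and exon lengths came from GENCODE M21, and promoters from RefSeq GRCm38.p6, both of the assembly that mm10 names.

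The 40 genes and all lists were chosen with earlier results of these data known. All 40 genes are accounted for. Values per library are given for Atf4 and, per role, for up to 5 called genes by size of change and at least 1 in the minor direction. For each other list, the called genes with the smallest adjusted p are given, up to 4 in its main direction and 2 in the opposite one. A few items within the rule are not reported here.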

Additional observations from a re-analysis of the deposited data

Results flagged for a closer look

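Over the 40 genes and Atad2, 82 groups of 4 libraries were examined for a single library far from the other 3, and 4 were found; chance gives about 1 in 20 groups. Slc1a4 in Atad2 shRNA replicate 1 had a log2 level of 12.82, above 12.70 to 12.72 in the other 3 libraries of its group. Trib3 in control replicate 2 had a log2 level of 9.81, above 9.65 to 9.66 in the others. Dars in control replicate 2 had a log2 level of 13.34, above 13.25 to 13.26 in the others. Eprs in control replicate 3 had a log2 level of 14.42, below 14.46 in each of the others.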

How the results depend on the processing

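Of the 32 called genes, 24 kept call and direction in all 20 alternative fits. The other 8 were Cars, Dars, Farsb, Iars, Yars, Atf4, Phgdh and Shmt2, and the cause of each loss was not tested. Atad2 shRNA replicate 3 had the fewest reads, and no call among the 40 rested on a floor.

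Under quantile normalisation, the log2 fold change was -0.017 for Dars, -0.059 for Lars, -0.086 for Nars, -0.075 for Qars and -0.075 for Tars. Cyclic loess gave -0.020 for Dars, -0.056 for Lars, -0.093 for Nars, -0.064 for Qars and -0.084 for Tars. Scaling to total reads, chosen after seeing the data, gave -0.031 for Lars, -0.058 for Nars, -0.050 for Qars and -0.055 for Tars, and it moved the median log2 fold change of all genes from -0.0095 to -0.087. All 5 of these synthetases had positive log2 fold changes otherwise, except that without 1 library at a time Nars ranged from -0.0081 (without Atad2 shRNA replicate 2) to 0.055, and Tars from -0.0091 (without Atad2 shRNA replicate 1, with -0.0018 without replicate 2) to 0.061. Slc7a1 ranged from -0.10 to 0.00017, the highest without Atad2 shRNA replicate 4. The median over the 40 genes was -0.17 under quantile normalisation and -0.16 under cyclic loess.

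Enzymes called higher numbered 0 under quantile normalisation, cyclic loess, scaling to total reads, no variance trend and an adjusted p under 0.01, and transporters called lower numbered 2 under the first 3 of these. Without a variance trend, 3 synthetases were called lower, all 3 of them among the 12 often-listed ones. Library weights gave 2 of those 12 higher. An adjusted p under 0.01 left 0 mitochondrial synthetases lower.

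Leaving out 1 library at a time gave 12 to 15 of the 40 genes higher and 16 to 19 lower, with 0 to 1 enzymes higher, 1 to 2 often-listed synthetases higher and a median from -0.085 to -0.013. Limma's voom on the recovered reads called 4578 of all genes higher and 4387 lower, and all 40 listed genes kept their side of the threshold. With the replicate number as a block, 14 genes were higher and 18 lower, and all 40 kept their side of the threshold. Same-numbered libraries did not deviate together (r = 0.034, -0.023, 0.021 and 0.011 over 14703 genes), 1 of 4 Atad2 shRNA libraries correlated best with its own number, and the labels state no pairing.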
